A study of Mus musculus with 5 samples.

Results

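Transfer RNA (tRNA) genes were examined as genomic loci in CUT&RUN data from mouse fetal testis. All 408 genes typed as tRNA on the assembled chromosomes of the mm10 RefSeq annotation (assembly GRCm38.p6) were taken, each with 1000 bp on either side, and windows that touched each other were merged. This gave 270 loci, out of 30186 loci when genes of every type were treated in the same way. The choice used the annotation and no peak. The 22 mitochondrial tRNA genes were left out, and no list held a peak on the mitochondrial genome.

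CUT&RUN uses an antibody to guide a nuclease to chromatin, so that the stretch bound by a protein or packed on a marked histone is cut out and sequenced. Fetal testes were profiled with an antibody against CREB at 3 ages counted in days of gestation (E13.5, then E16.5, then E18.5) and with an antibody against histone H3 lysine 4 (H3K4) in E18.5 testes; the labels do not name the methylation state. Each of these 4 groups is 1 library made from 100000 dissociated cells of whole male gonads, and no strain, genotype or treatment is named. An IgG control library, whose labels give conflicting stages, was not analysed here. With 1 library per group no difference between stages or antibodies has a replicate check, stage and library cannot be told apart, and no test was made.

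RNA polymerase III reads tRNA genes from promoter elements that lie inside the gene: the A box and the B box bind the factor TFIIIC, which places TFIIIB and then the polymerase just upstream. In mammalian cells active tRNA genes are known to sit in short stretches of open chromatin flanked by nucleosomes with methylated H3K4. CREB is a transcription factor activated by cAMP signalling, which in the testis carries hormone signals; it binds the cAMP response element (CRE), TGACGTCA, or its core, TGACG, mostly at promoters read by RNA polymerase II.

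The genes themselves are short, with a median length of 72 bp and a range of 70 to 107 bp. Their symbols name the product: in n-TRacg2 the letter after T is the amino acid (R, arginine) and the next letters are the anticodon. Only 4 of the tRNA genes lie wholly inside a promoter window of the RefSeq sequence table, and these are shown as examples of the class, 5′ to 3′, with any match to the consensus of the B box in capitals. The strand is the one that carries GGTTC. The first lies at chr7:35234770-35234843 on the minus strand, the second at chr7:79466419-79466491 on the plus strand, the third at chr13:21222586-21222657 on the plus strand and the last at chr13:23446142-23446214 on the minus strand.
n-TTagt9: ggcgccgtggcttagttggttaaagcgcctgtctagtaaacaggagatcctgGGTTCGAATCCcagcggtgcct
n-TRtcg5: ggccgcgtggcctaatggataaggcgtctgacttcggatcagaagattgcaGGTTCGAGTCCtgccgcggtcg
n-TAagc16: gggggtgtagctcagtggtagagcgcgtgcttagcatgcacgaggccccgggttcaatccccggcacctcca
n-TVcac9: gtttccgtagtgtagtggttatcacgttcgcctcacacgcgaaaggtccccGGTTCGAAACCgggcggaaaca
The first 3 had an H3K4 peak within 1000 bp, n-TVcac9 had no peak in any list, and none of the 4 had a CREB peak. The third has no match to that consensus.

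CREB peaks at tRNA loci often lay at the promoter of a neighbouring gene, and 3 such promoters are shown because CREB peaks of all stages, or a full CRE, fall on them. They are RefSeq windows of GRCm38.p6, from 250 bases before to 50 after the start of the gene, with TGACG or its reverse complement CGTCA in capitals. Sacm1l, which encodes a phosphoinositide phosphatase, lies beside n-TRacg2, and its window is chr9:123529503-123529802 on the plus strand. Ppp6r3, a regulatory subunit of protein phosphatase 6, lies beside n-TAagc9, with its window at chr19:3575700-3575999 on the minus strand. H4c8, a histone H4 gene, lies beside n-TMcat9, with its window at chr13:23530794-23531093 on the plus strand.
Sacm1l: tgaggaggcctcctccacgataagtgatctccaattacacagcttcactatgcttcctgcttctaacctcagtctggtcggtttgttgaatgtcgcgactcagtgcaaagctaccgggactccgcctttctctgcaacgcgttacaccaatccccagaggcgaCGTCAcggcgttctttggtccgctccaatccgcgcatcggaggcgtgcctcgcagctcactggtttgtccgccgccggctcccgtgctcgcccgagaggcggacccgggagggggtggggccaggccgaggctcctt
Ppp6r3: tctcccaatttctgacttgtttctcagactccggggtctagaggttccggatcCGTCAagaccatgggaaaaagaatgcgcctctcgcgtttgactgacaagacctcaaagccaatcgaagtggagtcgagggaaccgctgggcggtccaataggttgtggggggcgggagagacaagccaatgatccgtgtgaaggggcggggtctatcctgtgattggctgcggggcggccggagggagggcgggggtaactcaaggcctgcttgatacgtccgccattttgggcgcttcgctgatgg
H4c8: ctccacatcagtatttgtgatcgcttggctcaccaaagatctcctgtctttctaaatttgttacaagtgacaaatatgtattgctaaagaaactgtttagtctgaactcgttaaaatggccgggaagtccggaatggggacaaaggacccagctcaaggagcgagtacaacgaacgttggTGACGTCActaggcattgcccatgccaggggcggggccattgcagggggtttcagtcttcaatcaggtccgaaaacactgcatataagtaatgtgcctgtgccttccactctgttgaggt
The core in the Sacm1l window lay 20, 4 and 62 bp from the midpoints of the CREB peaks in E13.5, E16.5 and E18.5 testes. In the Ppp6r3 window these distances were 18, 126 and 57 bp, and at both genes the core lay inside all 3 peaks. The full CRE of the H4c8 window lay inside the E16.5 peak, with its 2 cores 22 and 25 bp from the midpoint, and outside the narrower E18.5 peak, 96 and 99 bp from its midpoint.

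H3K4 peaks stood at many tRNA loci and CREB peaks at few. An H3K4 peak overlapped 115 of the 270 loci in E18.5 testes, or 42.6% (95% Wilson interval 36.8 to 48.6%). CREB peaks overlapped 3 loci in E13.5 testes (1.11%, 0.379 to 3.22%), 29 in E16.5 testes (10.7%, 7.58 to 15%) and 16 in E18.5 testes (5.93%, 3.68 to 9.41%). These intervals cover counting error only. With flanks of 250 bp in place of 1000 bp the H3K4 share was 19.2% and that of CREB in E18.5 testes 3.67%, and with every CREB list cut to its first 862 peaks the shares of E16.5 and E18.5 were both 2.22%. In all, 30 loci had a CREB peak at some stage, 90 had an H3K4 peak and no CREB peak, and 150 had no peak in any list. The tissue mixes cell types, so a peak carried by few cells and a weak peak in many cells cannot be told apart.

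The same overlap counted over other regions gives the background. For H3K4 it was 28% of 36816 merged protein-coding gene ends, 4.52% of 1107 snoRNA loci, 4.5% of 1000 snRNA loci, 11.3% of 1000 miRNA loci and 1.48% of consecutive 2000 bp windows of the genome. The H3K4 share of tRNA loci lay above each of these, of which only the protein-coding value counts the ends of a gene separately. It lay below the 52.7% of 21887 protein-coding genes with an H3K4 peak within 1000 bp of either end. For CREB, protein-coding gene ends had 1.83% in E13.5 testes, 7.24% in E16.5 testes and 6.23% in E18.5 testes. Genome windows had 0.065%, 0.34% and 0.231% at the same stages. The CREB shares of tRNA loci in E13.5 and E18.5 testes were close to those of protein-coding gene ends, whose values lie inside their intervals, and in E16.5 testes the lower bound of the tRNA interval, 7.58%, lay just above theirs. Counted per gene, with a peak near either end, protein-coding genes had CREB in 3.94%, 14.9% and 12.9% of cases from E13.5 to E18.5, above the tRNA shares at every stage. CREB at other small RNA loci ran at 0.632%, 1.63% and 1.26% for snoRNA, 0.3%, 1.7% and 1.1% for snRNA and 0.8%, 2.7% and 2.5% for miRNA loci. The E16.5 peaks are 630 bp wide, where the H3K4 peaks span 210 bp and the other CREB peaks 150 bp (E13.5) or 160 bp (E18.5). With every peak set to 150 bp, 27 tRNA loci (10%) had CREB in E16.5 testes, so the share moved little with the width. Protein-coding gene ends were not recounted at 150 bp, so whether the narrow margin over them holds at that width was not tested.

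**Figure D1:**
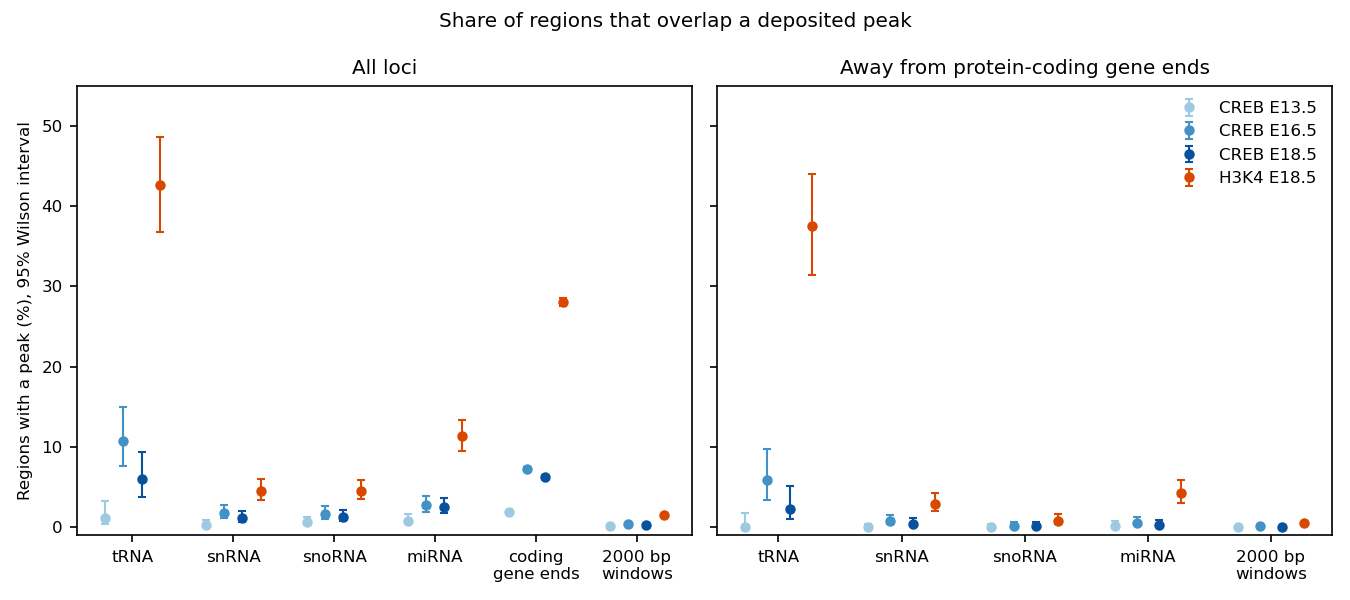
Share of regions that overlap a deposited peak (y axis, percent, with 95% Wilson intervals) for tRNA loci, 3 other classes of small RNA loci, protein-coding gene ends and 2000 bp genome windows, over all loci (left) and away from protein-coding gene ends (right). Points are the 3 CREB lists, from E13.5 to E18.5, with the H3K4 list of E18.5; the H3K4 share of tRNA loci is 42.6% over all loci and 37.5% away from coding ends.

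CREB peaks were more frequent at tRNA loci beside protein-coding genes than at the others. Of the 270 loci, 46 lay with their window against the 1000 bp around an end of a protein-coding gene, 54 against an end of another kind of gene, and 170 had no other gene end nearby. Only the outermost start and end of each gene were used, so a start inside a gene did not count as an end. At n-TCgca52 the E16.5 CREB peak overlapped promoter windows of Trmt61b, and at n-TGgcc2 the H3K4 peak overlapped promoter windows of Gm38523. Both loci were still placed away from coding ends. At the 46 coding ends CREB peaks were found at 3 loci in E13.5 testes, 16 in E16.5 testes and 11 in E18.5 testes, which is 6.52%, 34.8% and 23.9%. H3K4 peaks were found at 31 of them (67.4%). Loci of other small RNAs at coding ends had CREB peaks in E16.5 testes in 14.8% of cases for snoRNA, 14.7% for snRNA and 10.8% for miRNA genes. At E18.5 these shares were 11.3%, 10.3% and 10.8%, in E13.5 testes 6.09%, 4.41% and 3.29%, and for H3K4 36.5%, 26.5% and 37.6%. For E16.5, E18.5 and H3K4 the tRNA loci thus had the higher share of the 4 classes; in E13.5 testes the share rests on 3 loci.

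Away from coding ends, where 224 tRNA loci with 336 genes remained, CREB was found at 0 loci in E13.5 testes, 13 in E16.5 testes and 5 in E18.5 testes. The shares were 5.8% (3.42 to 9.67%) in E16.5 testes and 2.23% (0.957 to 5.12%) in E18.5 testes, and a count of 0 allows up to 1.34% in E13.5 testes, taken as 3 counts of the total. H3K4 was found at 84 of these loci, or 37.5% (31.4 to 44%). In the same setting H3K4 was found at 0.806% of snoRNA, 2.9% of snRNA and 4.19% of miRNA loci and at 0.505% of genome windows. CREB in E16.5 testes was found at 0.101%, 0.751% and 0.508% of those loci and 0.0809% of windows. At E18.5 it was found at 0.101%, 0.429% and 0.254% of them and 0.0403% of windows. CREB in E13.5 testes was found at 0%, 0% and 0.127% of them and 0.00885% of windows. Away from coding ends, tRNA loci thus held H3K4 and CREB peaks of E16.5 and E18.5 at higher shares than the other small RNA classes, although the CREB counts are small. The 170 loci with no gene end of any kind nearby held H3K4 peaks in 51 cases (30%), CREB peaks in 6 in E16.5 testes (3.53%) and in 1 in E18.5 testes (0.588%), and none in E13.5 testes, where up to 1.76% is allowed. At the 54 loci beside other gene ends the counts were 33 for H3K4 (61.1%), 7 for E16.5 (13%), 4 for E18.5 (7.41%) and 0 for E13.5.

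CREB at all 3 stages was found at 3 loci, each with a single tRNA gene beside a protein-coding gene. The first is n-TRacg2, an arginine tRNA gene in the locus chr9:123528425-123530497. Its CREB peaks lay 151, 167 and 109 bp from the tRNA gene in E13.5, E16.5 and E18.5 testes, and 105, 89 and 147 bp from the end of Sacm1l. H3K4 peaks lay 352 and 898 bp from the tRNA gene. All 3 CREB midpoints thus lay in the short stretch between the tRNA gene and the Sacm1l start, with the H3K4 peaks outside it.

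At n-TAagc9, an alanine tRNA gene in chr19:3575263-3577335, the CREB peaks lay 337, 193 and 262 bp from the tRNA gene in E13.5, E16.5 and E18.5 testes. They lay 107, 37 and 32 bp from the end of Ppp6r3, nearer to it than to the tRNA gene at every stage. No H3K4 peak overlapped this locus, and the nearest midpoint was 1360 bp from the tRNA gene. The locus n-TRcct1 at chr6:38532931-38535003, another arginine tRNA gene, was the reverse case: its peaks lay 204, 201 and 245 bp from the tRNA gene and 1134, 1131 and 1175 bp from the end of Fmc1, which encodes an assembly factor of the mitochondrial ATP synthase. Its H3K4 peaks lay 546 and 671 bp from the tRNA gene.

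A further 12 loci had CREB in E16.5 and E18.5 testes and not in E13.5 testes. The E13.5 list is the shortest, with 862 peaks, while those of E16.5, E18.5 and H3K4 hold 3528, 2957 and 21211. Peaks at tRNA loci made up 0.36%, 0.851%, 0.611% and 0.745% of the peaks of these lists on assembled chromosomes. Of the 12 loci, 7 lay at coding ends and 5 away from them. Beside n-TRacg6 the peaks lay 13 and 59 bp from the end of Prmt5, which encodes an arginine methyltransferase, and 213 and 167 bp from the tRNA gene in E16.5 and E18.5 testes. Beside n-TQctg9 they lay 43 and 104 bp from Rab11a, a small GTPase of recycling endosomes, and 247 and 186 bp from the tRNA gene. At n-TMcat9 they lay 90 and 164 bp from H4c8 and 535 and 461 bp from the tRNA gene, farther than at any other of the 12 loci. In these 3 cases the peaks sat on the neighbouring promoter. At n-TRcct5 to n-TRtcg4, a locus of 3 arginine tRNA genes, they lay 67 and 97 bp from a tRNA gene and 769 and 799 bp from Mrpl58, a protein of the mitochondrial ribosome. Here, as at n-TIaat4 to n-TWcca6 (103 and 96 bp, with the end of Borcs6 1344 and 1370 bp away), the peaks lay nearer to the tRNA genes. The other loci of this kind at coding ends were n-TIaat16, with a peak 123 bp from the tRNA gene in the E16.5 list and peaks 175 and 278 bp from it in the E18.5 list, and n-TCgca55 to n-TCgca54, with peaks at 89 and 337 bp.

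At the 5 loci away from coding ends with CREB at both later stages, the peaks lay 4642 to 9020 bp from the nearest protein-coding gene end. At n-THgtg4 to n-THgtg5 on chromosome 2, a locus of 3 histidine tRNA genes, each stage had 2 separate peaks, 167 and 147 bp from a tRNA gene in E16.5 testes and 130 and 136 bp in E18.5 testes. The nearest protein-coding end, that of Shf, was 6548 to 8434 bp from them. At n-TEctc10 to n-TLcaa3 on chromosome 11 the peaks lay 86 bp from n-TLcaa3 in E16.5 testes and 59 bp in E18.5 testes. The E18.5 peak overlapped n-TLcaa3 itself, the only tRNA gene that an E18.5 peak touched. At n-TAagc13 to n-TYgta7 on chromosome 13 they lay 104 and 116 bp from n-TYgta7, with Abt1 the nearest coding gene at 9020 and 9008 bp. At n-TQttg6 they lay 365 and 350 bp from the tRNA gene, and 10 and 5 bp from an end of the noncoding gene 4833417C18Rik. At n-TAagc8 on chromosome 4, which had no other gene end nearby, they lay 427 and 387 bp from the tRNA gene and 5125 and 5165 bp from Sesn2. All 5 loci also had an H3K4 peak.

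The remaining 15 loci with CREB had it in 1 list, 14 in E16.5 testes and 1 in E18.5 testes. Those of E16.5 with the shortest distance to a tRNA gene were n-TSgct5 at 35 bp, n-TFgaa2 to n-TVtac2 at 49 bp, n-TEttc7 at 52 bp, n-TRtct4 to n-TKctt27 at 82 bp and n-TGgcc6 to n-TQttg5 at 148 bp. The second of these holds 6 tRNA genes for 5 amino acids on chromosome 19, more genes than any other locus, and its peak lay between 2 valine genes, n-TVtac1 and n-TVtac2, overlapping both. Another 7 had theirs from 167 to 592 bp away. Those with the longest distances were n-TVcac7 at 1232 bp and n-TVaac8 at 1088 bp, whose peaks lay 889 bp from the outer end of Trim41 and 343 bp from that of Mynn. Each peak also overlapped a RefSeq promoter window of that gene. The CRE core of the window lay inside the peak at Trim41 and outside it at Mynn. At Mynn, CREB midpoints of E13.5 and E18.5 lay 559 and 564 bp from that core, beside 535 bp for E16.5, and outside the locus. At Trim41 an E18.5 peak overlapped the promoter window, with its midpoint 223 bp from the core, also outside the locus. Both loci thus have CREB in 1 list only because the wide E16.5 peak reached over the locus edge. The E18.5 case was n-TDgtc8, an aspartate gene, where the peak lay 329 bp from the tRNA gene and 18 bp from Lta4h, which encodes leukotriene A4 hydrolase. Without the E16.5 list, CREB was found at 16 loci (5.93%) in place of 30.

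**Figure D2:**
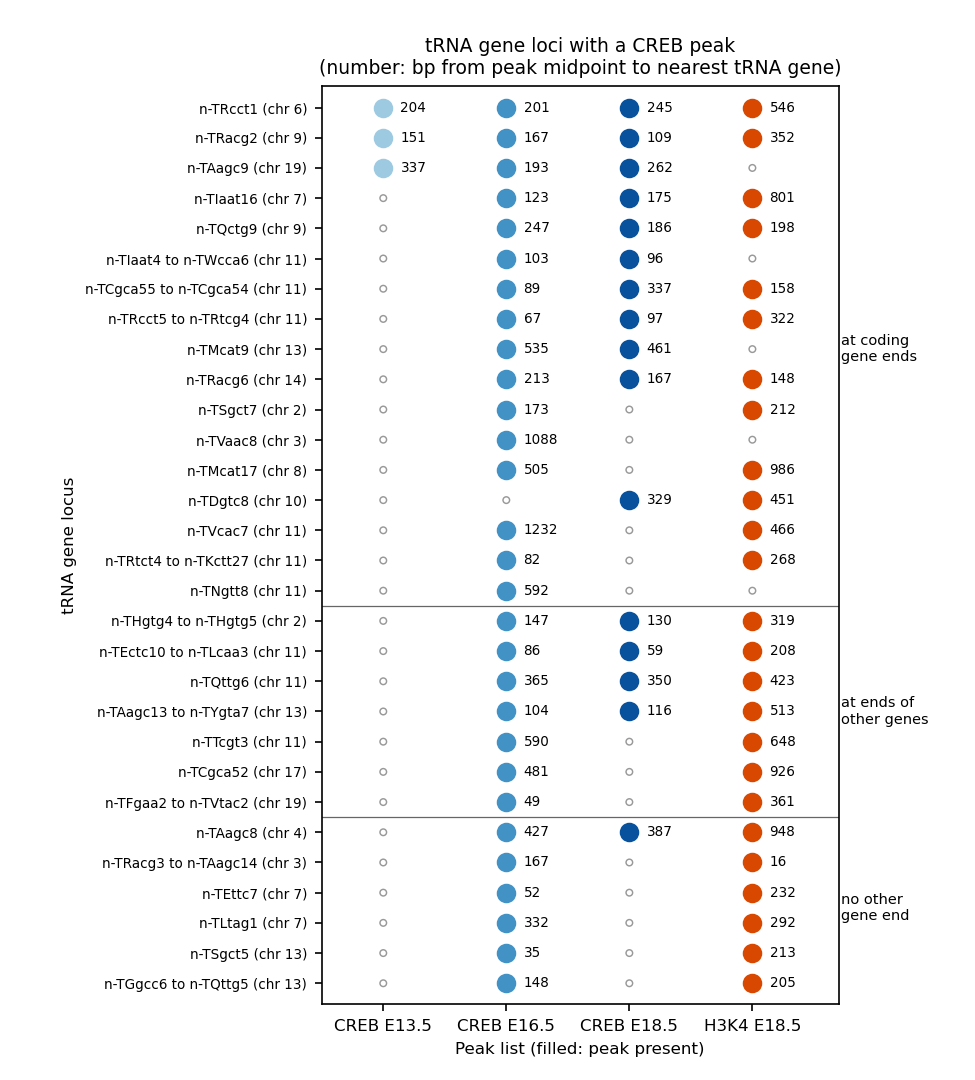
The 30 tRNA loci with a CREB peak (rows, grouped by whether a protein-coding gene end, another gene end or none lies nearby) against the 4 peak lists (columns). Filled circles mark a peak and the number beside each is the distance in bp from the nearest peak midpoint to a tRNA gene; all 3 loci filled for E13.5 are also filled for E16.5 and for E18.5, and each of the 13 loci away from coding ends has an H3K4 peak.

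The plot of the 30 loci shows how the lists nest. All 3 loci of the E13.5 list recurred in both later lists, and 15 of the 16 loci of E18.5 were among the 29 of E16.5. H3K4 was found at 25 of the 30 loci with CREB (83.3%). By stage it was found at 2 of 3 loci in E13.5 testes, 24 of 29 in E16.5 testes and 13 of 16 in E18.5 testes, the stage of the H3K4 library. The same overlaps were not counted over all CREB peaks, so neither the nesting nor the H3K4 share is shown to be particular to tRNA. The E16.5 list is also the longest CREB list and has the widest peaks.

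The overlap of CREB and H3K4 was counted in both settings. Away from coding ends, all 13 loci with CREB lay among the 84 with H3K4: CREB was found at 13 of those (15.5%) in E16.5 testes and at 5 (5.95%) in E18.5 testes, and at 0 of the 140 loci without H3K4, which allows up to 2.14%. At coding ends CREB was found at 11 of 31 loci with H3K4 (35.5%) and 5 of 15 without (33.3%) in E16.5 testes, and at 8 (25.8%) and 3 (20%) in E18.5 testes. Among the 5 loci counted without H3K4 is n-TVaac8. There an H3K4 peak just outside the locus overlapped the E16.5 CREB peak, with midpoints 46 bp apart. No difference between the settings was tested. Most CREB peaks had an H3K4 peak nearby. An H3K4 midpoint lay within 1000 bp of the midpoint of 2 of 3 CREB peaks in E13.5 testes, 23 of 30 in E16.5 testes and 12 of 18 in E18.5 testes, with median distances of 575, 432 and 547 bp. The peaks themselves overlapped in 0, 15 and 4 cases, and the wide E16.5 peaks overlap more readily.

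Over all loci CREB peaks lay nearer to a tRNA gene than H3K4 peaks. CREB midpoints lay at a median of 204 bp from the nearest tRNA gene in E13.5 testes, 170 bp in E16.5 testes and 180.5 bp in E18.5 testes. H3K4 midpoints lay at a median of 373.5 bp, over a range of 16 to 1068 bp. Of 158 H3K4 peaks at tRNA loci, 13 lay less than 200 bp away, 51 from 200 to under 300 bp (32.3%), 52 from 300 to under 500 bp and 42 at 500 bp or more. Of the CREB peaks, 17 of 30 in E16.5 testes and 10 of 18 in E18.5 testes lay within 200 bp. Over all loci H3K4 peaks were thus most frequent just beyond 200 bp from a tRNA gene and CREB peaks inside that distance.

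The medians away from coding ends were 157.5 bp for 14 CREB peaks of E16.5, 133 bp for 6 of E18.5 and 361 bp for 111 H3K4 peaks. In this setting 39 of the H3K4 peaks (35.1%) lay from 200 to under 300 bp and 8 closer than that. Of the CREB peaks in this setting, 8 of the 14 and 5 of the 6 lay at loci beside an end of another kind of gene. The order of the medians did not hold in every subset. At loci with 1 tRNA gene away from coding ends the medians were 365 bp for 7 CREB peaks of E16.5, 368.5 bp for 2 of E18.5 and 356.5 bp for 62 H3K4 peaks, and 2 of the 7 and 0 of the 2 CREB peaks lay within 200 bp. At loci with no other gene end they were 157.5 bp for 6 CREB peaks of E16.5, 387 bp for 1 of E18.5 and 304.5 bp for 64 H3K4 peaks. At loci with several tRNA genes a peak has more genes to lie close to, and the part of this in the shorter CREB distances was not tested. At coding ends the CREB peaks were divided between the neighbours: 2 of 3 in E13.5 testes, 10 of 16 in E16.5 testes and 6 of 12 in E18.5 testes were nearer to the protein-coding end than to the tRNA gene, and 1, 3 and 3 lay over 1000 bp from that end.

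**Figure D3:**
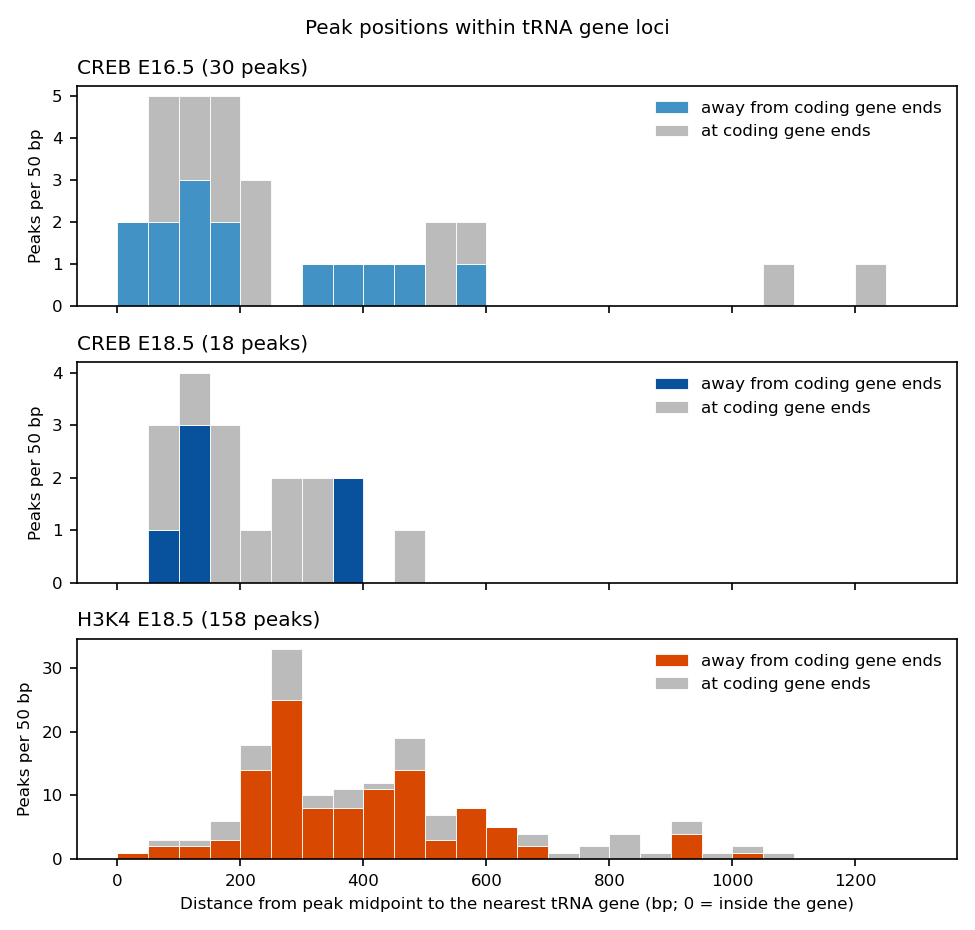
Number of peaks per 50 bp (y axis) by distance in bp from the peak midpoint to the nearest tRNA gene (x axis), for CREB in E16.5 testes (30 peaks) and E18.5 testes (18 peaks) and H3K4 in E18.5 testes (158 peaks), with loci away from coding gene ends in colour and those at coding ends in grey. The H3K4 peaks are most frequent from 200 to under 300 bp, with 13 closer than 200 bp, while 17 of the E16.5 and 10 of the E18.5 CREB peaks lie closer than 200 bp.

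Peaks rarely covered the tRNA gene itself. H3K4 peaks overlapped a tRNA gene in 4 of 158 cases (2.53%) and E18.5 CREB peaks in 1 of 18. The E16.5 peaks did so in 20 of 30 cases at their deposited width and in 4 of 28 (14.3%) when every peak was set to 150 bp around its midpoint. The count thus depends on the peak width used. Of the 408 tRNA genes, 25 were touched by an E16.5 peak at deposited width, among them the arginine genes n-TRacg2, n-TRcct1 and n-TRtct4, the histidine genes n-THgtg3 and n-THgtg4 and the tyrosine genes n-TYgta1 and n-TYgta2.

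H3K4 peaks stood on 1 side of the gene more often than on both. Among the 70 loci with a single tRNA gene and an H3K4 peak, 46 had peaks on 1 side, 22 on both sides and 2 on the gene alone. Over all 115 loci with H3K4, 75 had 1 peak, 37 had 2 and 3 had 3. The 5 loci without CREB whose H3K4 midpoints lay closest to a tRNA gene were n-TQctg2 at 74 bp, n-TAagc17 at 79 bp, n-TTagt5 to n-TScga3 at 85 bp, n-TIaat11 to n-TTagt4 at 129 bp and n-TPtgg8 to n-TPagg7 at 135 bp. The third of these lay 658 bp from an end of Per1, a clock gene. The gene positions carry no strand, so whether this end is the start of Per1 was not checked. The arginine gene n-TRtct5 at chr1:173390329-173390402, known for its expression in the mouse nervous system, had no peak in any list, and the nearest H3K4 midpoint lay 22272 bp away.

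Loci with more than 1 tRNA gene had H3K4 more often than loci with 1. Peaks were found at 45 of the 81 loci with 2 or more genes (55.6%) and at 70 of the 189 with 1 gene (37%). Away from coding ends the shares were 36 of 67 (53.7%) and 48 of 157 (30.6%). Loci with more genes are also wider, and the part of width in this was not tested.

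The genomic cluster in which a tRNA gene lies went with large differences in H3K4. Loci less than 100 kb apart were joined into 129 neighbourhoods, of which 8 held at least 6 loci. In 4 of these 8 no locus had a peak in any list, and in the other 4 between 50% and 82.4% of loci had H3K4. They are grouped here by that outcome, as a description.

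The empty neighbourhoods differ in make-up. The largest, at chr6:48132937-48364603, holds 30 loci with 48 genes, all for cysteine with 1 anticodon; a count of 0 of 30 allows up to 10%. The next, at chr3:96321074-96502518, holds 18 loci with 25 genes for 7 amino acids; 0 of 18 allows up to 16.7%. At chr1:171032942-171112515 lie 8 loci with 25 genes for 6 amino acids, among them 3 loci of 5 genes with the same order of products (glutamate, glycine, aspartate, leucine, glycine), and at chrX:136356602-136431436 lie 6 loci with 8 alanine genes. Many of these genes have copies with the same anticodon close by, and how reads that map equally well to several copies were treated is not given in the sources used here. The part of such reads in the empty neighbourhoods was not tested.

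The neighbourhoods with H3K4 include the large tRNA clusters among the histone genes of chromosome 13. At chr13:23269421-23531419, with 23 loci and 45 genes for 15 amino acids, 13 loci had H3K4 (56.5%), 3 had CREB in E16.5 testes and 2 in E18.5 testes. At chr13:21847022-22051767, with 22 loci and 32 genes, 12 had H3K4 (54.5%) and 1 had CREB, in E16.5 testes. At chr13:21159785-21327789, with 17 loci and 24 genes, 14 had H3K4 (82.4%) and none had CREB at any stage. Over all 270 loci the CREB shares were 1.11%, 10.7% and 5.93% from E13.5 to E18.5. A count of 0 among 17 loci therefore does not set this neighbourhood apart for CREB. At chr11:69036003-69126248, with 6 loci and 18 genes for 11 amino acids, 3 had H3K4, 2 had CREB in E16.5 testes and 1 in E18.5 testes.

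**Figure D4:**
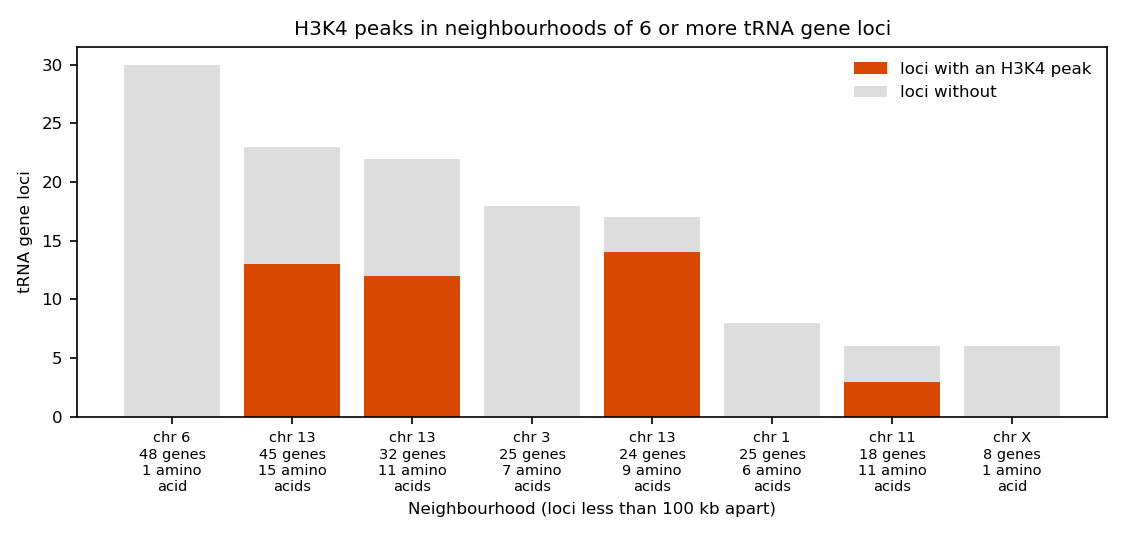
Number of tRNA loci with an H3K4 peak (colour) and without (grey) in the 8 neighbourhoods of at least 6 loci (y axis, loci; x axis, chromosome with the number of tRNA genes and of amino acids they serve). The neighbourhoods on chromosomes 6, 3, 1 and X have no H3K4 peak, while the 3 on chromosome 13 have 13, 12 and 14 loci with a peak.

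By amino acid, the share of tRNA genes with an H3K4 peak in their own 1000 bp window was highest for proline and lowest for cysteine. Over all amino acids 163 of the 408 genes (40%) had such a peak. Proline genes had 13 of 17 (76.5%), phenylalanine 5 of 7 (71.4%), isoleucine 11 of 16 (68.8%), threonine 11 of 18 (61.1%) and arginine 14 of 24 (58.3%). At the low end lay tryptophan with 2 of 8 (25%), asparagine with 3 of 13 (23.1%), histidine with 1 of 11 (9.09%) and cysteine with 4 of 57 (7.02%). The intervals of neighbouring amino acids in this order overlap widely, as the plot by amino acid shows. Several low values go with the empty neighbourhoods: that of chromosome 6 holds 48 of the 57 cysteine genes, that of chromosome 3 holds 6 of the 11 histidine and 6 of the 13 asparagine genes, and that of chromosome 1 another asparagine gene. None of the proline, phenylalanine, isoleucine, threonine or arginine genes lies in them. Without cysteine the share was 159 of 351 genes (45.3%).

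**Figure D5:**
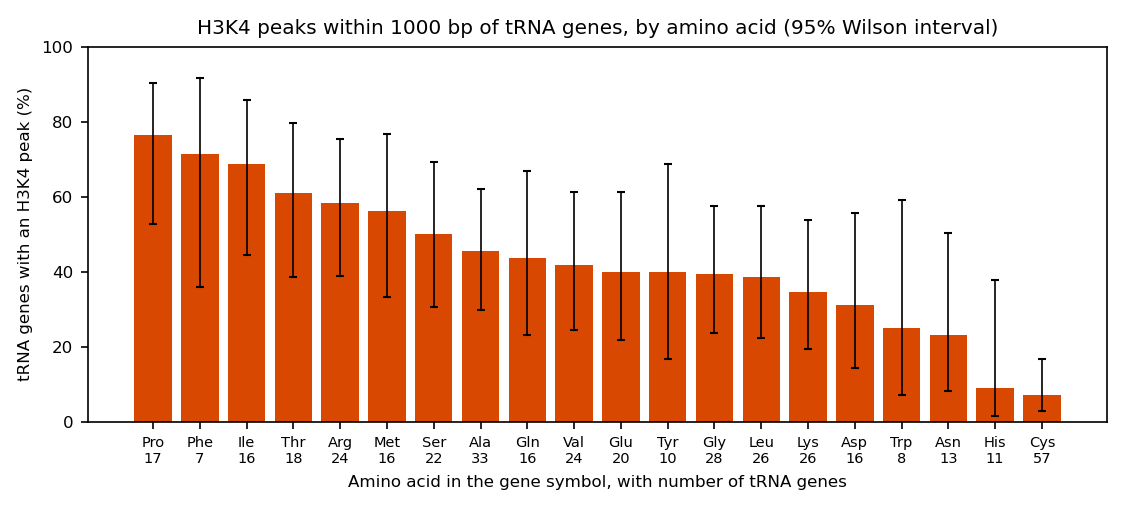
Share of tRNA genes with an H3K4 peak within 1000 bp (y axis, percent, bars from 0, with 95% Wilson intervals) for the 20 amino acids (x axis, with the number of genes). Proline is highest at 76.5% and cysteine lowest at 7.02%, and most intervals overlap those of their neighbours.

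CREB by amino acid rests on few genes. At the level of single genes, 3 of 408 had a CREB peak within 1000 bp in E13.5 testes (0.735%), 48 in E16.5 testes (11.8%) and 25 in E18.5 testes (6.13%). Arginine genes were the most frequent among them by count, with 2 in E13.5 testes, 9 in E16.5 testes and 6 in E18.5 testes of 24 genes. Of these 24, 16 lay away from coding ends, as did 30 of the 33 alanine genes. Histidine genes, with CREB at 1 locus, had 0, 3 and 3 of 11, a higher share than arginine in E18.5 testes. Alanine genes had 1, 3 and 2 of 33. Proline genes, the first in H3K4 share, had no CREB peak at any stage. Genes in 1 locus share peaks and are not independent of each other.

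Motif letters were counted in the RefSeq promoter windows of other genes that overlap tRNA loci. The CRE core TGACG, on either strand, was found in 15 of 20 such windows with a CREB peak (75%, 53.1 to 88.8%) and in 6 of 47 without (12.8%). Some windows overlap, as those of H4c8 and Gm11335 do, or belong to the same gene, as with Trmt61b. The interval treats them as separate. Over all 32817 promoter windows it was found in 20.8%, and in 58.3% of the 3648 windows with a CREB peak. The full CRE TGACGTCA, which contains the core on both strands, was found in 2 of the 20 (10%) and 0 of the 47, against 1.79% of all windows and 10.5% of windows with CREB. The 2 windows with it, those of H4c8 and the neighbouring Gm11335, share a single site. In 11 of the 15 windows a core lay inside a CREB peak, and in the other 4, those of Mynn, LOC115487419, Gm11205 and Gm38959, every core lay outside the peaks. The letters of the B box consensus were found in 0 of the 20 and 6 of the 47 (12.8%), against 0.122% of all windows. Among the 6 are the windows of Gm38989, Polg and Gm46404, which contain n-TTagt9, n-TRtcg5 and n-TVcac9 themselves. The windows were chosen for lying in tRNA loci, so no result is drawn from a B box share above that of all windows. These matches describe sequence and do not show binding.

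Genes of RNA polymerase III and its factors had peaks within 1000 bp of an end at higher shares than protein-coding genes in general. The list also holds factors that do not act at tRNA genes, such as the Snapc genes, Brf2 and Gtf3a. Of its 30 genes, 4 had CREB in E13.5 testes (13.3%), 9 in E16.5 testes (30%), 10 in E18.5 testes (33.3%) and 28 had H3K4 (93.3%). Over all protein-coding genes these shares were 3.94%, 14.9% and 12.9% for CREB and 52.7% for H3K4. At all 3 stages CREB was found at Gtf3c1 and Gtf3c2, subunits of TFIIIC, and at Snapc1 and Snapc5, subunits of the complex that starts snRNA genes. At Gtf3c1 the peaks lay 121, 114 and 102 bp from the gene end and at Gtf3c2 73, 139 and 93 bp. CREB in E16.5 and E18.5 testes was found at Brf1 and Bdp1, both TFIIIB subunits, at Polr3d and at Polr1d, a subunit shared with RNA polymerase I. At E18.5 alone it was found at Tbp and at Maf1, the repressor of RNA polymerase III, and in E16.5 testes alone at Crcp.

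Genes for tRNA processing, export and modification also had shares above those of all protein-coding genes: of 71, 11 had CREB in E13.5 testes (15.5%), 31 in E16.5 testes (43.7%), 23 in E18.5 testes (32.4%) and 60 had H3K4 (84.5%). Those with CREB at all 3 stages were Rpp38, a protein of ribonuclease P, Tsen34 of the splicing endonuclease, the methylation genes Trmt6, Trmt10a, Trmt112, Ftsj1 and Mettl1, and Elp5, Qtrt2, Dus4l and Mocs3, which act in other base modifications. At Mettl1 the peaks lay 493, 475 and 485 bp from the gene end and at Trmt6 138, 116 and 66 bp. Other RNA polymerase III transcripts, some of them read from promoters upstream of the gene, had CREB at 3 of 14 genes in E13.5 testes, 5 in E16.5 testes and 6 in E18.5 testes, and H3K4 at 7. For comparison, the shares of snRNA loci were 0.3%, 1.7% and 1.1% for CREB and 4.5% for H3K4. The sets are unlike, since the 14 genes were picked by name and the snRNA values cover 1000 annotated loci. The 14 were also not split by nearby coding ends, where snRNA loci had CREB in 14.7% of cases in E16.5 testes. Rmrp, the RNA of ribonuclease MRP, had peaks at 134, 129 and 90 bp, and the signal recognition particle RNA genes Rn7s1 and Rn7s2 had them at 99, 100 and 124 bp and at 115, 55 and 70 bp. Rpph1, the RNA of ribonuclease P, and the Y RNA gene Rny1 had CREB in E16.5 and E18.5 testes, and the vault RNA gene Vaultrc5 in E18.5 testes.

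The H3K4 list was checked against markers of the tissue. It held peaks at 3 of 5 Sertoli markers (Sox9, Amh and Dhh), 3 of 6 Leydig markers (Nr5a1, Star and Cyp11a1) and 1 of 4 germ cell markers (Dazl), and none at Gata4, Wt1, Cyp17a1, Hsd3b1, Insl3, Ddx4, Dppa3 or Pou5f1. It also held peaks at 2 of 3 endothelial markers, all 3 ovary markers, 1 of 3 markers of mesonephros and kidney and 1 of 3 of neurons, and at 0 of 4 interstitial and 0 of 4 blood markers. No CREB list held a peak at any of them. Since 52.7% of all protein-coding genes had an H3K4 peak at an end, these counts do not set the testis markers apart. The part of other cell types in the tRNA values was not tested.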

How the data were processed

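CUT&RUN peak lists of 4 libraries were used, 3 with a CREB antibody and 1 with an H3K4 antibody, grouped by the labels. The deposited lists give chromosome, start and end in mm10 and no score, signal or count, so depth is unknown and a missing peak is not shown to be absent. Per the submitters' processing notes, Trim Galore 0.6.10, Bowtie2 2.5.2 and MACS2 were used; the sources used here give neither settings, nor the control, nor the meaning of list order. Nearly all peaks of a list have 1 width, which differs between lists.

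Gene positions came from a RefSeq table (GRCm38.p6, which shares mm10 coordinates) without strand or exons. A peak counted at a locus with an overlap of at least 1 bp; positions are 1-based, and a distance is that of the midpoint of a peak from the nearer end of a gene, with 0 inside a tRNA gene. A locus was at a coding end when its window touched the 1000 bp around the outermost start or end of a protein-coding gene. Starts inside a gene were not used for this. Shares carry 95% Wilson intervals. No test was made. The planned motif count in tRNA promoters was replaced by one in promoter windows of other genes inside tRNA loci, 67 in number.

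Members, lists and comparisons were chosen with earlier results of these data known. Named loci are those with CREB at the most stages, with the most tRNA genes, with a peak in 1 CREB list or with H3K4 alone nearest to a tRNA gene, tRNA genes overlapped by CREB, n-TRtct5, and pathway genes by number of stages. Names outside this rule (Trim41, Mynn, LOC115487419, Gm11205, Gm38959, n-TCgca52, Trmt61b, n-TGgcc2, Gm38523, Gm38989, Polg, Gm46404 and the neighbourhoods of at least 6 loci) were chosen after their values were seen. Python 3.11.15, numpy 2.4.6, pandas 2.3.3, scipy 1.17.1 and matplotlib 3.10.9 were used. In simulated lists 60 of 60 planted loci were recovered for each library among 270, with 0 others called. Planted peaks were placed on the loci and all others kept off them, so this checks the overlap counting alone.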

Additional observations from a re-analysis of the deposited data

How the results depend on the processing

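Of 90 values recomputed under other settings, 73 counted as unchanged and 17 as moved. The 63 locus shares were held against the Wilson interval of the main value, and 46 lay inside it and 17 outside. The 3 distances and 24 gene counts have no interval here. They were held against a fold limit set by choice, and all stayed within it. With flanks of 250 bp, CREB in E18.5 testes was found at 3.67% and H3K4 at 19.2% of loci. With 500 bp, H3K4 was found at 33.9% and CREB of any stage together with H3K4 at 5.92% (9.26% at 1000 bp), and with 2000 bp H3K4 at 49.6%. Away from coding ends the shares were 0% in E13.5 testes, 5.8% in E16.5 testes and 2.23% in E18.5 testes, with 2.23% for more than 1 CREB stage (5.56% over all loci), 5.8% for CREB of any stage with H3K4 and 2.23% for CREB of E18.5 with H3K4 (4.81% over all loci). When each CREB list was cut to its first 862 peaks, the shares were 2.22% in E16.5 testes and 2.22% in E18.5 testes, with 1.11% for more than 1 stage, 2.59% for any stage with H3K4 and 1.85% for E18.5 with H3K4. Without the E16.5 list, CREB of any stage was found at 5.93% of loci in place of 11.1%; this setting, and the one without the chromosome 6 cysteine neighbourhood, were chosen after seeing the data. Setting all peaks to 150 bp, or requiring the midpoint or 50% of a peak inside the locus, kept the locus shares within their intervals. So did merging more loci or none, and leaving out that neighbourhood. Fewer loci, fewer peaks, or narrower or wider windows enter these settings by construction. No paired analysis was possible because each group holds 1 library and no result comes from a test. Unknown depth, peak widths that differ between lists and the lack of replicates limit every comparison between lists.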

Other observations

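Within an amino acid, anticodons differed in how many of their tRNA genes had an H3K4 peak within 1000 bp. Of the alanine genes, AGC had 10 of 13, CGC 3 of 9 and TGC 2 of 11. Of the glycine genes, GCC had 8 of 14 and TCC 0 of 7. Of these, 6 of the 7 glycine TCC genes lie in the neighbourhoods of chromosomes 1 and 3 that held no peak, as do 4 of the 14 glycine GCC genes, and 4 alanine CGC and 4 alanine TGC genes lie in that of chromosome X. All 6 proline AGG genes and all 4 threonine CGT genes had a peak, as did 10 of 15 isoleucine AAT genes. Away from coding ends the counts were 9 of 11 for alanine AGC, 6 of 6 for proline AGG and 4 of 4 for threonine CGT.

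By chromosome, chromosome 13 held 65 of the 270 loci and 40 of the 115 with H3K4, while chromosome 11, with 30 loci, held 9 of the 29 loci with CREB at E16.5 and 5 of the 16 at E18.5. Chromosome 14 had H3K4 at 7 of 8 loci and chromosome 7 at 7 of 9. Chromosome 6 had it at 3 of 35, chromosome 3 at 6 of 29, chromosome 1 at 3 of 18 and chromosome X at 1 of 14.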
